A study of Mus musculus with 36 samples.

Results

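The clustered protocadherins were measured in neoplastic cells of mouse lung tumours driven by EML4-ALK. Members were the rows of the count table whose Ensembl ID carries a symbol beginning with Pcdha, Pcdhb or Pcdhg, with pseudogenes left out. This gave 57 genes, 14 of the alpha, 22 of the beta and 21 of the gamma cluster, among 49585 gene IDs. Pcdhgb8, which the annotation calls a polymorphic pseudogene, held 372 counts in all and was left out. All members lie on the plus strand of chromosome 18 (GRCm38, GENCODE release M21). The alpha cluster spans 36930184 to 37187661, the beta cluster 37264938 to 37524479 and the gamma cluster 37661793 to 37841873.

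RNA sequencing was done on EGFP-positive cells sorted from 36 tumours of the lung, 9 in each of 4 groups. The driver was variant 1 or variant 3 of the EML4-ALK fusion, and the tumours carried either sgNeo, the guide of the Setd2-proficient tumours, or sgSetd2, a guide against Setd2. Titles name 12 codes, so each group has 3 codes with 3 tumours apiece. Whether a code is an animal is not stated in the labels, nor are strain, age, time of collection or how the fusion was made.

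The groups are called Variant 1 Neo, Variant 1 Setd2, Variant 3 Neo and Variant 3 Setd2, as the labels name them. A group level is the mean ± SD of normalised CPM (counts scaled to library size) over its 3 codes, each the sum of 3 tumours, and a range over tumours covers the 9 tumours of a group. The depth of a tumour was between 17.9 M and 137.2 M counts. A difference passed where the adjusted p of edgeR's quasi-likelihood test on the code sums was under 0.05, with the Benjamini-Hochberg method over the 20009 genes tested. The labels do not say that codes are separate animals, so these p-values measure the spread between codes, which may in part be technical. Sex is not in the labels and was read from Ddx3y, a gene of the Y chromosome. Ddx3y held 116 to 138 CPM in CE475 of Variant 1 Setd2, CE429 and CE433 of Variant 3 Neo and CE450 of Variant 3 Setd2. The other codes, among them every Variant 1 Neo code, held 0.0183 CPM or less. Each group with a male code thus came from more than 1 animal.

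Clustered protocadherins are cell surface adhesion proteins of the cadherin superfamily that bind their own kind on neighbouring cells. They are best known in neurons, where each cell uses a combination of members set by the choice of alternative promoters under the control of CTCF, cohesin and DNA methylation. In the alpha and gamma clusters each variable first exon is joined to constant exons that the whole cluster shares, whereas each beta member is mainly a single coding exon with no constant part. Setd2 is the histone methyltransferase that travels with elongating RNA polymerase and trimethylates histone H3 in gene bodies.

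The targeted gene did not pass in either variant. For Setd2 the 3 Variant 1 Neo codes held 71.0, 53.5 and 78.5 CPM and the 3 Variant 1 Setd2 codes 39.0, 38.7 and 34.5 CPM, without overlap. In Variant 3 the codes overlapped, at 52.9, 65.6 and 45.2 CPM in Neo and 33.5, 43.8 and 59.8 CPM in Setd2. It differed on the log2 scale by -0.86 ± 0.22 (SE, adjusted p = 0.0825) in Variant 1 and -0.26 ± 0.22 (adjusted p = 0.647) in Variant 3. A small edit by a guide need not lower the read count of its target, and the code CE456, which held the 59.8 CPM, was kept under its label.

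Most reads of the clustered protocadherins came from gamma members, fewer from beta members and almost none from the alpha cluster. Over all tumours the alpha cluster held 89 counts, the beta cluster 26288 and the gamma cluster 136483. A member was taken as expressed in a group at a mean of at least 1 CPM, and as detected in a tumour at 10 or more counts. No alpha member, 10 beta members and 20 gamma members were expressed in at least 1 group. The 12 members expressed in all 4 groups were all of the gamma cluster. Levels are those of all cells sorted together: fewer cells using a member and less RNA per cell cannot be told apart in bulk RNA.

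Of the 14 alpha members, 7 had no count in any tumour. Only Pcdha1, Pcdha2 and Pcdha5 reached 10 counts in a tumour, with 18, 43 and 14 counts in all. The summed alpha level of a tumour was at most 0.0404 CPM in Variant 1 Neo, 0.626 in Variant 1 Setd2, 0.440 in Variant 3 Neo and 0.0576 in Variant 3 Setd2. No alpha member passed the filter on low counts, so the cluster entered no test. Of the other clusters, 14 of 22 beta and 20 of 21 gamma members were tested.

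**Figure D1:**
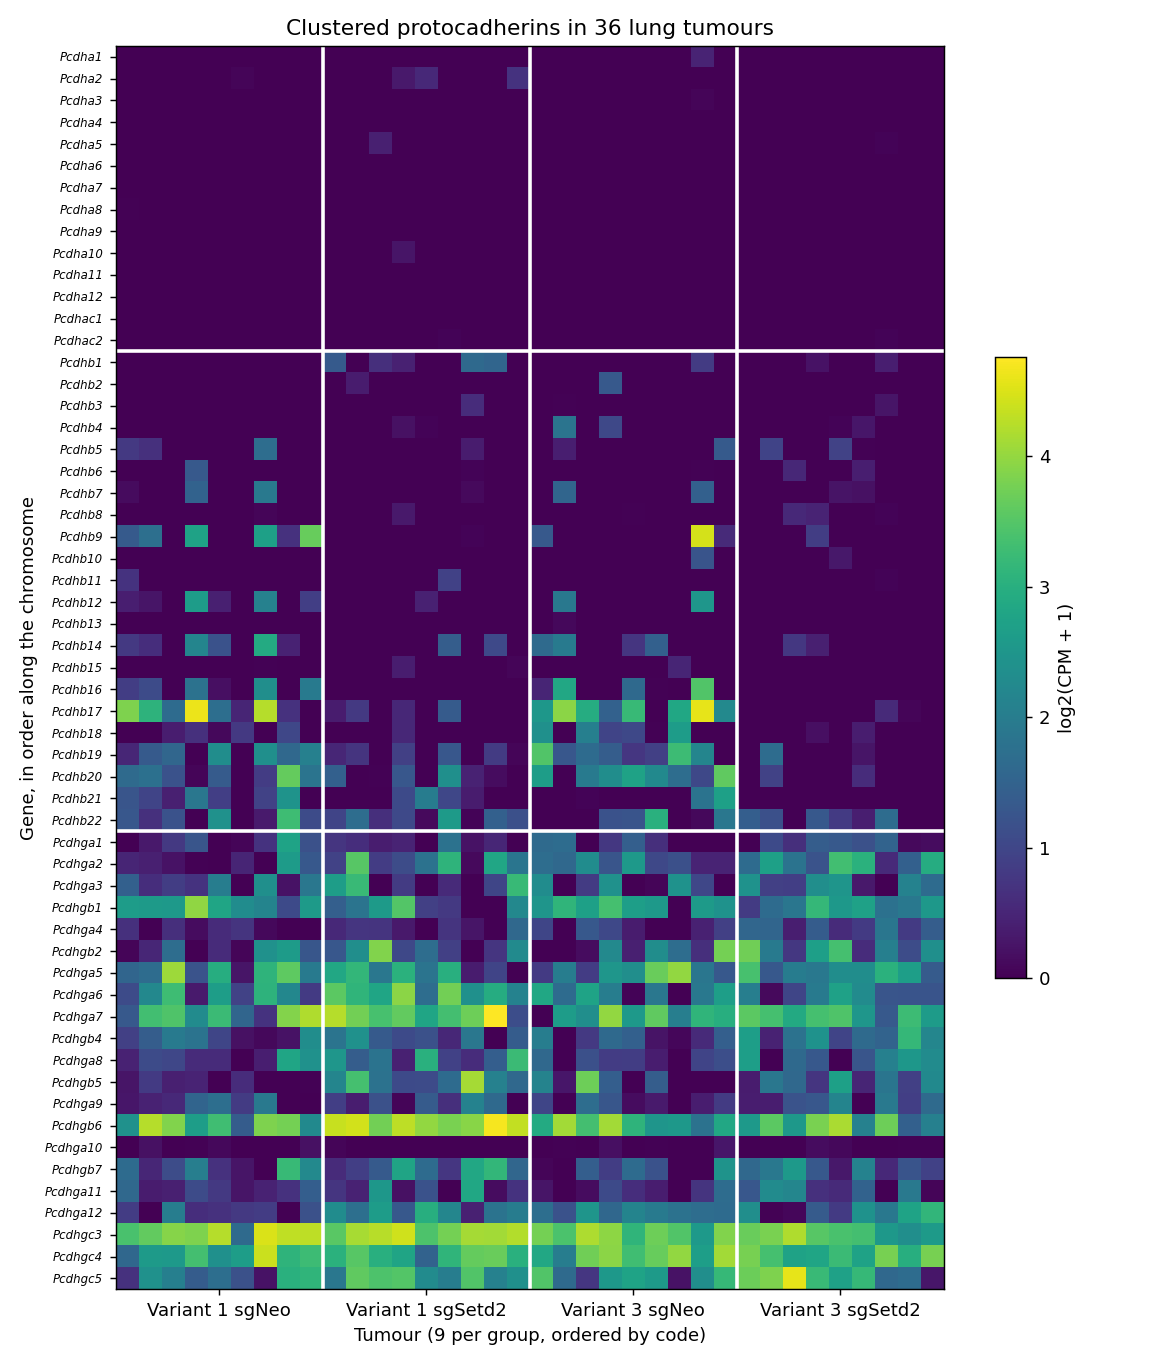
Levels of the clustered protocadherins in each of the 36 tumours as log2(CPM + 1), with members in rows in their order along the chromosome and tumours in columns by group. Gamma rows are filled in all 4 groups, beta rows mainly in the sgNeo groups, and alpha rows are nearly empty.

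The exon structure of the locus limits single values. Each gamma row shares its last exons with the other gamma rows, and no source used here names the counting tool, so levels below are read as those of reads assigned to a member. Outside such shared exons the sequences were mostly distinct. Windows of 100 bases were taken from the longest exon that starts a transcript of each member. The median share of them found in another gene was 0.2% in beta and 0% in gamma, against 6.2% in alpha. Pcdhga4, at 37.4% of its windows, and Pcdha4, at 82.7%, are the members whose reads are most easily split with another gene. Pcdhb21 and Pcdhb22 overlap each other, and the exons of Pcdhb12 are overlapped by Gm37446, which held no count. Pcdhga10 has no exonic base of its own in the annotation, held 61 counts and was not tested, so its low count is no measure of its expression. Exons of Gm26672, which held 921 counts, lie on those of Pcdhga10, Pcdhgb7, Pcdhga11 and Pcdhga12. Pcdhgb7 is left 1823 and Pcdhga11 1256 bases of its own, so their levels also depend on how reads there were counted.

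The beta cluster was lower in the sgSetd2 groups of both variants. Its summed level was 27.9 ± 8.54 CPM in Variant 1 Neo and 5.19 ± 2.84 CPM in Variant 1 Setd2. In Variant 3 it was 27.0 ± 9.36 CPM in Neo and 1.98 ± 1.23 CPM in Setd2. The codes did not overlap in either variant: the Neo codes lay at 18.2, 31.1 and 34.3 CPM in Variant 1 and at 26.9, 17.7 and 36.4 CPM in Variant 3, and the Setd2 codes at 3.18, 8.44 and 3.95 and at 2.85, 2.51 and 0.577 CPM. No p is given for a cluster sum, because the members were chosen with results of these data known.

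Tumours within a group spread widely. The lowest, median and highest summed beta level was 1.13, 22.3 and 48.5 CPM in Variant 1 Neo against 1.15, 3.90 and 15.8 CPM in Variant 1 Setd2. The lowest Variant 1 Neo tumour, number 4 of code CE468, fell inside the range of Variant 1 Setd2, so these tumours overlapped. The Variant 3 tumours did not overlap, at 12.3, 22.7 and 69.7 CPM in Neo against 0, 2.06 and 5.31 CPM in Setd2.

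The gamma cluster did not show this pattern. Its summed level was 66.9 ± 20.0 CPM in Variant 1 Neo and 104.8 ± 13.9 CPM in Variant 1 Setd2, and 68.9 ± 0.868 CPM in Variant 3 Neo and 82.3 ± 13.8 CPM in Variant 3 Setd2. Both pairs of groups overlapped by code: the highest Variant 1 Neo code held 89.99 CPM and the lowest Variant 1 Setd2 code 89.7 CPM, while the lowest Variant 3 Setd2 code, at 66.4 CPM, lay below all 3 Variant 3 Neo codes. The beta share of all clustered protocadherin CPM had a median of 21.5% over the tumours of Variant 1 Neo and 24.7% over those of Variant 3 Neo. In the sgSetd2 groups the median share was 4.65% for Variant 1 and 2.06% for Variant 3.

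**Figure D2:**
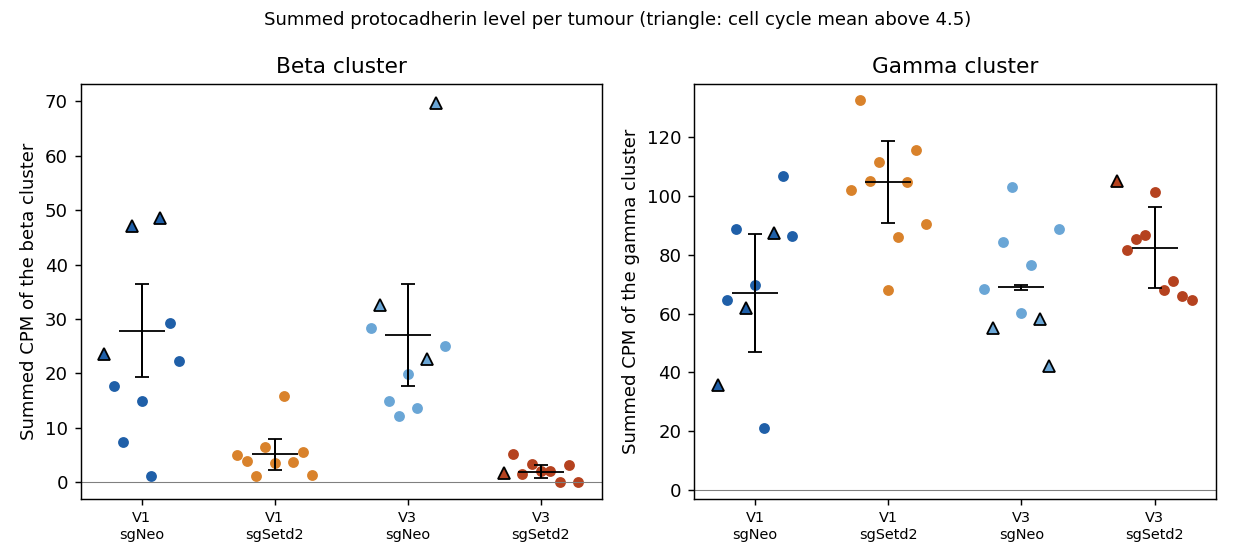
Summed CPM of the beta (left) and gamma (right) clusters in each tumour by group, with black bars for the mean ± SD over the 3 codes of a group and triangles for tumours whose mean over 15 cell cycle genes was above 4.5. The Variant 3 Setd2 tumours stay at or below 5.31 CPM in beta, under every Variant 3 Neo tumour, and the gamma values of the groups overlap.

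The number of members present followed the same split. In Variant 1, 9 beta members were expressed in Neo and 1, Pcdhb22, in Setd2. In Variant 3, 8 were expressed in Neo and 0 in Setd2. A tumour had a median of 7 detected beta members in both Neo groups, 4 in Variant 1 Setd2 and 3 in Variant 3 Setd2. Of the gamma members, 15 were expressed in Variant 1 Neo, 18 in Variant 1 Setd2, 16 in Variant 3 Neo and 19 in Variant 3 Setd2.

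The beta members nearest the gamma cluster held most of the beta signal. Pcdhb14 to Pcdhb22 held 78.1% of the beta counts, and Pcdhb1 to Pcdhb13 held 21.9%. A member of the first stretch was detected in a median of 13 tumours, against 3 tumours for the second. Both stretches were lower in the sgSetd2 groups: Pcdhb14 to Pcdhb22 summed to 20.2 ± 3.91 CPM in Variant 1 Neo and 4.10 ± 3.17 in Variant 1 Setd2, and to 22.8 ± 5.08 CPM in Variant 3 Neo and 1.31 ± 0.855 in Variant 3 Setd2. Pcdhb1 to Pcdhb13 summed to 7.65 ± 4.83 CPM against 1.09 ± 0.706 in Variant 1, and to 4.26 ± 4.38 CPM against 0.665 ± 0.571 in Variant 3.

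Pcdhb16 had the smallest p of the tested members for sgSetd2, in both variants and averaged over them. It had no count in any of the 18 sgSetd2 tumours and was detected in 9 of the 18 sgNeo tumours. The lowest, median and highest tumour held 0, 0.820 and 4.14 CPM in Variant 1 Neo and 0, 0.0230 and 10.01 CPM in Variant 3 Neo. The sgNeo tumours at 0 overlapped the sgSetd2 tumours, but each sgNeo code held counts, at 0.696, 1.49 and 3.13 CPM in Variant 1 and 2.45, 1.42 and 2.70 CPM in Variant 3.

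Pcdhb16 passed in both variants. In Variant 1 it held 749 counts in Neo and 0 in Setd2, at least 207-fold lower by a floor of 3 counts over the group (log2 fold change -10.99 ± 1.23, adjusted p = 0.0152). In Variant 3 it held 1002 counts in Neo and 0 in Setd2, at least 376-fold lower (log2 fold change -11.29 ± 1.17, adjusted p = 0.0088). The fitted log2 fold changes of such a member depend on the prior count and are no bound. It was the 1 of 34 tested members that passed in Variant 1, where 1.42% of all genes tested passed (0.72% as lower).

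Pcdhb17 had the highest level per kilobase of own exons among the beta members in both Neo groups, 2.22 and 1.71 CPM per kilobase, and was the other member that passed in Variant 3. Its mean was 10.4 ± 3.62 CPM in Variant 1 Neo, 0.344 ± 0.330 in Variant 1 Setd2, 7.98 ± 1.96 in Variant 3 Neo and 0.0353 ± 0.0611 in Variant 3 Setd2. It was detected in 8 of 9 tumours of each Neo group, in 3 of Variant 1 Setd2 and in 1 of Variant 3 Setd2. In Variant 3 it held 3691 counts in Neo and 22 in Setd2, 189-fold lower by normalised counts (log2 fold change -7.70 ± 1.54, adjusted p = 0.0354). In Variant 1 the difference of -4.90 ± 1.33 did not pass (adjusted p = 0.0982), although the 3 Neo codes, at 7.50 CPM or more, lay above the 3 Setd2 codes, at 0.658 CPM or less.

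The Variant 3 call of Pcdhb17 is thinner than that of Pcdhb16. It was lost without any 1 of 9 of the 12 codes, with adjusted p up to 0.111, and was kept without CE479, CE483 or CE456. It was also lost with no filter (0.0901), with only the groups compared (0.0545) and with sex of the code as covariate (0.0574), at log2 fold changes of -7.70, -7.71 and -8.00. The Variant 1 call of Pcdhb16 was lost without CE475 (adjusted p = 0.0603) or without CE483 (0.0718). In those 2 fits 19 and 16 of all genes tested passed, beside 284 with all codes, so that loss is not particular to Pcdhb16. The fits without a code that lost the Pcdhb17 call called 78 to 259 genes in Variant 3, beside 299 with all codes. With all codes, 2 of 34 tested members passed in Variant 3, against 1.49% of all genes tested (0.615% as lower).

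Averaged over the variants, 4 of 34 members passed, all of the beta cluster and all lower in sgSetd2, against 7.35% of all genes tested (3.63% as lower). They were Pcdhb16 (log2 fold change -11.14 ± 0.85, adjusted p = 0.001), Pcdhb17 (-6.30 ± 1.02, 0.0048), Pcdhb9 (-7.35 ± 1.82, 0.0338) and Pcdhb12 (-7.65 ± 1.83, 0.037). Pcdhb17 fell from 7564 counts to 137 counts, 54.9-fold by normalised counts. Pcdhb9 fell from 2843 counts to 50, 56.5-fold, and Pcdhb12 from 1005 counts to 12, 83.2-fold. Pcdhb16, with 1751 counts against 0, was at least 580-fold lower.

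Pcdhb9 and Pcdhb12, like Pcdhb16, were detected in only part of the sgNeo tumours. Pcdhb9 was detected in 6 tumours of Variant 1 Neo, in 0 of Variant 1 Setd2, in 3 of Variant 3 Neo and in 1 of Variant 3 Setd2. Its highest Variant 3 Neo tumour, number 2 of code CE433, held 21.0 CPM, and the next held 1.50 CPM. Pcdhb12 was detected in 4 tumours of Variant 1 Neo, 2 of Variant 3 Neo and 1 of Variant 1 Setd2, and had no count in Variant 3 Setd2. Both members had no count in the Variant 3 Neo code CE429. The call of Pcdhb9 was lost without any 1 of 9 codes, with adjusted p up to 0.106, and kept without CE467, CE429 or CE454. That of Pcdhb12 was also lost without any 1 of 9 codes, with adjusted p up to 0.0907, and kept without CE467, CE479 or CE429. With sex of the code as covariate their adjusted p was 0.0566 and 0.0516.

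**Figure D3:**
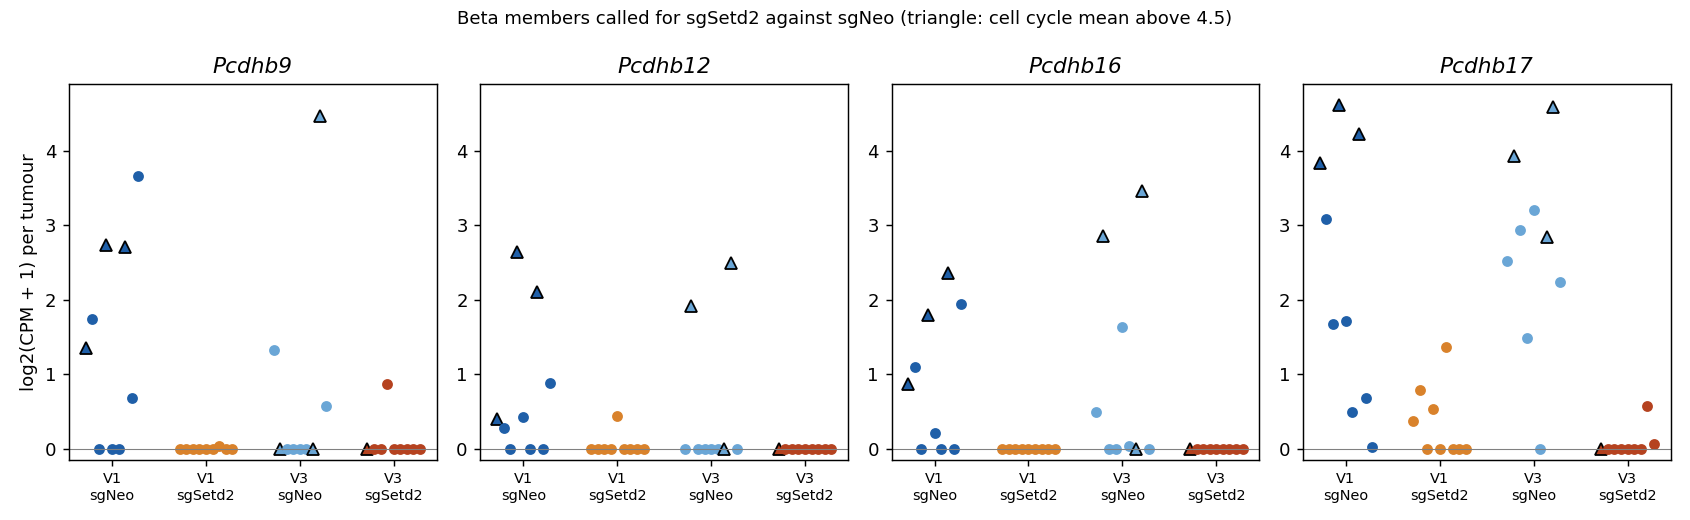
Levels of the 4 beta members that passed for sgSetd2 against sgNeo averaged over the variants, as log2(CPM + 1) in each tumour by group. Triangles are the tumours whose mean over 15 cell cycle genes was above 4.5, and Pcdhb16 is at 0 in all 18 sgSetd2 tumours.

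The other expressed beta members mostly lay lower in sgSetd2 without passing. Pcdhb20 held 4.79 ± 1.82 CPM in Variant 3 Neo and 0.147 ± 0.150 in Variant 3 Setd2, with no overlap of codes (log2 fold change -5.04 ± 1.31, adjusted p = 0.0876). In Variant 1 it held 1.71 ± 1.23 CPM in Neo and 0.813 ± 0.907 in Setd2, and the codes overlapped. Pcdhb19 held 1.82 ± 1.49 CPM against 0.489 ± 0.262 in Variant 1 and 2.93 ± 2.13 CPM against 0.257 ± 0.402 in Variant 3, with no overlap of codes in either. Pcdhb18, expressed only in Variant 3 Neo by the 1 CPM rule, held 1.48 ± 0.865 CPM there and 0.0403 ± 0.0697 in Variant 3 Setd2.

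Pcdhb14 held 1.86 ± 1.20 CPM in Variant 1 Neo, 0.310 ± 0.272 in Variant 1 Setd2, 0.903 ± 0.957 in Variant 3 Neo and 0.125 ± 0.139 in Variant 3 Setd2. Pcdhb21 held 1.21 ± 0.484, 0.586 ± 0.923, 1.16 ± 2.01 and 0 CPM in the same order, and its Variant 3 Neo mean rested mainly on CE433, at 3.48 CPM. Pcdhb21 and Pcdhb14 overlapped by code in both variants, with Pcdhb14 at 0 CPM in CE433 and Pcdhb21 at 0 CPM in CE429 of Variant 3 Neo.

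Pcdhb22 and Pcdhb1 were not lower in Variant 1 Setd2. Pcdhb22, the beta member nearest the gamma cluster, held 1.23 ± 0.328 CPM in Variant 1 Neo and 1.46 ± 0.505 in Variant 1 Setd2, and 1.31 ± 1.28 and 0.711 ± 0.295 CPM in Variant 3. It was detected in 24 tumours, the most of any beta member, and its averaged log2 fold change was -0.32 ± 0.84. Pcdhb1, at the alpha end of the cluster, had no count in Variant 1 Neo and 217 counts in Variant 1 Setd2, where 5 of 9 tumours detected it. By the floor of 3 counts it was at least 87.4-fold higher, and it did not pass (adjusted p = 0.143), though DESeq2 called it. In Variant 3 Pcdhb1 held 33 counts in Neo and 21 in Setd2, at 0.0686 and 0.0344 CPM.

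Over the 14 tested beta members, 11 had a log2 fold change below 0 in Variant 1 and 13 in Variant 3, where 50.5% and 48.0% of all genes tested did. The median was -2.30 in Variant 1 and -4.10 in Variant 3, beside -0.01 and 0.02 for all genes tested. The Setd2 codes all lay below the Neo codes for 6 beta members in Variant 1 (Pcdhb7, Pcdhb9, Pcdhb12, Pcdhb16, Pcdhb17 and Pcdhb19), against 12.3% of all genes tested, and for 5 in Variant 3 (Pcdhb16 to Pcdhb20), against 8.96%. Placing members without counts in 1 group at their floor left both medians the same to 2 decimals. The members that were tested are those with enough counts in some group, so these counts describe them and not the whole cluster.

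The remaining beta members were expressed in no group by the 1 CPM rule. Pcdhb5 and Pcdhb7 were highest in Variant 1 Neo, at 0.486 and 0.773 CPM, and Pcdhb8 was highest in Variant 3 Setd2, at 0.0996 CPM. Pcdhb7 fell from 327 counts to 3 in Variant 1 and from 154 to 26 in Variant 3 without passing, though DESeq2 called it averaged. Pcdhb8 went the other way, from 3 counts to 11 in Variant 1 and from 3 to 48 in Variant 3. Its Variant 3 difference did not pass (log2 fold change 4.03 ± 2.17, adjusted p = 0.414). The 8 members not tested, Pcdhb2, Pcdhb3, Pcdhb4, Pcdhb6, Pcdhb10, Pcdhb11, Pcdhb13 and Pcdhb15, held between 3 and 154 counts each over all tumours.

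Which beta member led a tumour differed from tumour to tumour. Per kilobase of a member's own exons, Pcdhb17 led in 10 tumours, 9 of them sgNeo, Pcdhb20 in 7, Pcdhb22 in 6, Pcdhb1 in 4 and Pcdhb9 in 3. All 4 tumours led by Pcdhb1 were Variant 1 Setd2. Tumours of 1 code also differed: Pcdhb17 held 23.5, 2.28 and 0.404 CPM in the tumours of CE468, and Pcdhb16 held 0, 10.01 and 0 CPM in those of CE433.

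**Figure D4:**
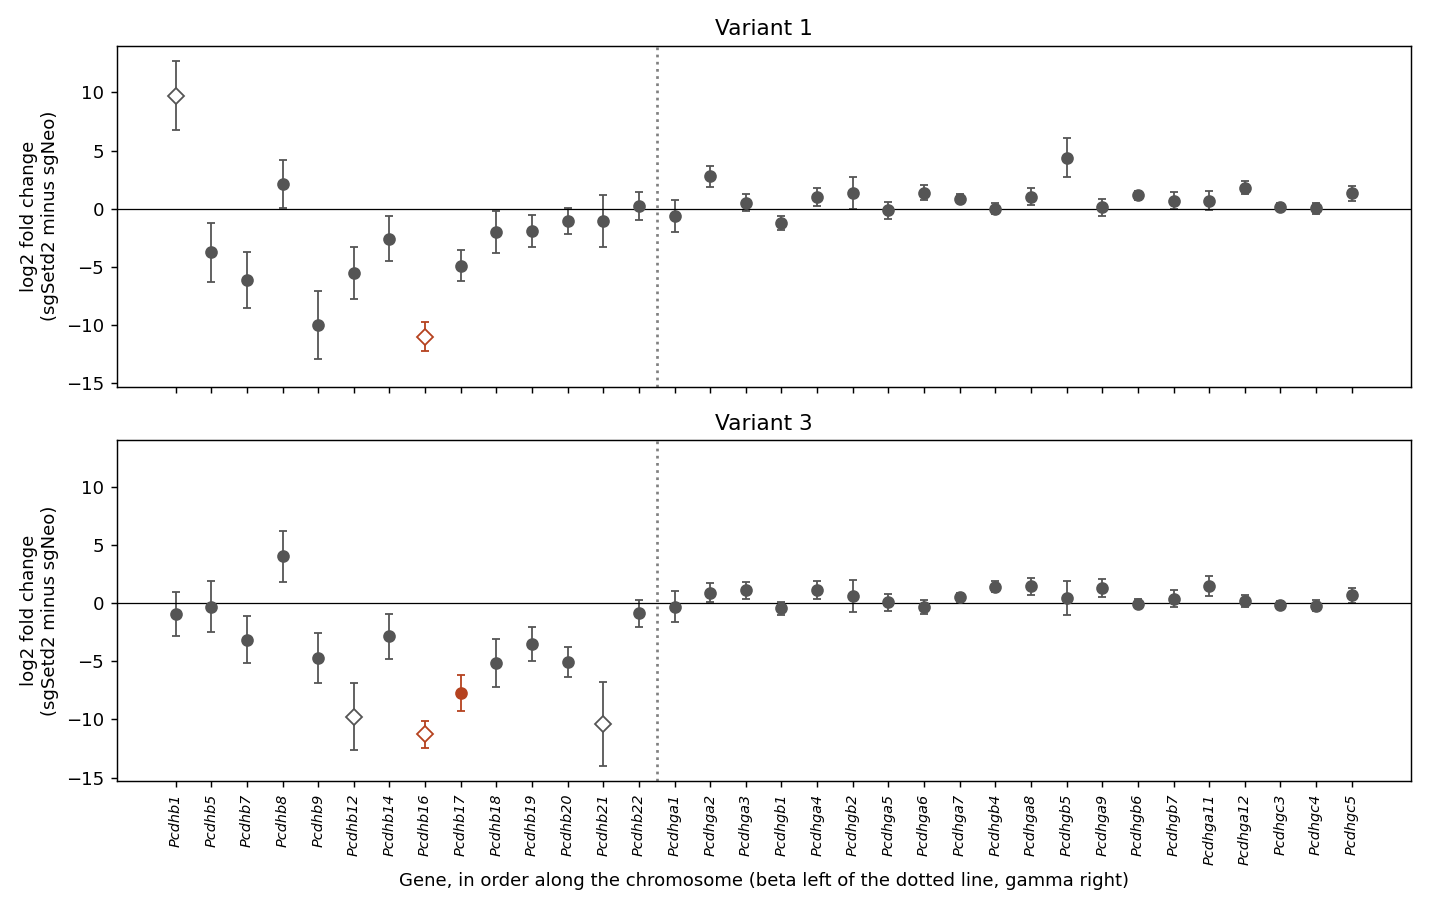
Fitted log2 fold change of sgSetd2 minus sgNeo for the 34 tested members in their order along the chromosome, with bars of 1 SE, in Variant 1 (upper) and Variant 3 (lower). Most beta members lie below 0 and most gamma members near or above 0, red marks passed at an adjusted p under 0.05, and open diamonds have 0 counts in 1 of the groups, so that their place depends on the prior count.

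Cell cycle genes moved with the guide in Variant 1, and these values stand beside the beta result. Over 15 cell cycle genes, a list added after the data were seen, 4 (Bub1, Ccna2, Cdk1 and Aurkb) fell in Variant 1 Setd2 and 0 passed in Variant 3. The median log2 fold change of the list was -1.71 in Variant 1 and -0.22 in Variant 3. The mean log2(CPM + 1) of the list was above 4.5 in 7 tumours, 6 sgNeo and 1 sgSetd2, and the 4 highest beta sums among the 18 sgNeo tumours were all in this set.

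Without these 7 tumours no member passed in any contrast, while 6 genes of all tested passed in Variant 1, 129 in Variant 3 and 338 averaged. Pcdhb16 then had a log2 fold change of -9.90 (adjusted p = 0.389) in Variant 1, -9.02 (0.257) in Variant 3 and -9.46 (0.0655) averaged. Pcdhb17 had a log2 fold change of -7.04 (adjusted p = 0.176) in Variant 3 and -4.83 (0.0877) averaged. Averaged, Pcdhb9 was at -6.13 (0.155) and Pcdhb12 at -1.60 (1.0), so that Pcdhb12 lost most of its fitted difference without these tumours. Without them the Pcdhb16 level of the Neo codes was 0.571, 0.0783 and 2.35 CPM in Variant 1 and 0.257, 1.41 and 0 CPM in Variant 3, where CE433 then overlapped the Setd2 codes. The beta sums of the codes were then 12.6, 8.24 and 23.5 CPM in Variant 1 Neo against 3.14, 8.49 and 3.87 in Variant 1 Setd2, which overlapped. In Variant 3 they were 23.3, 17.6 and 25.1 CPM in Neo against 3.28, 2.47 and 0.580 in Setd2, which did not.

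The members differed in how far they sat in those tumours. Among sgNeo tumours, Pcdhb7 held 480 counts in the 6 above 4.5 and 1 count in the other 12, and Pcdhb12 held 926 and 79. Pcdhb17 held 5346 and 2218 counts, and it was detected in 6 of 6 and in 10 of 12. Pcdhb20 held 286 and 2823 counts, and Pcdhb22 held 94 and 1152. The part of the cell cycle in the beta result was not tested beyond these values and a fit with the list's mean as a covariate, in which no member passed in Variant 1, Pcdhb16 passed in Variant 3, and Pcdhb16 and Pcdhb17 passed averaged. That fit called 1 of all genes tested in Variant 1, 255 in Variant 3 and 403 averaged, so the 0 in Variant 1 is no result about the members.

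**Figure D5:**
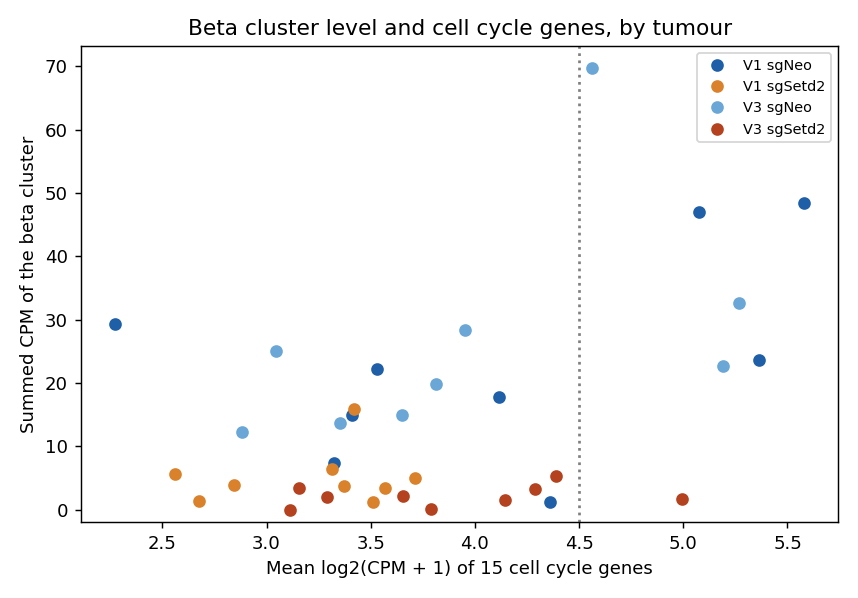
Summed CPM of the beta cluster against the mean log2(CPM + 1) of 15 cell cycle genes, 1 point per tumour, coloured by group, with a dotted line at 4.5. Of the 7 tumours right of the line 6 are sgNeo, and the sgSetd2 tumours stay at or below 15.8 CPM on either side.

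By level per kilobase of own exons, the C-type isoform Pcdhgc3 most often led the gamma cluster. This gene, known from many cell types besides neurons, was detected in all 36 tumours. It had the highest level per kilobase of own exons in 24 of them. Exons of BC037039, which held 1280 counts, overlap part of it and leave it 1821 bases of its own. Its level per kilobase thus depends on how reads there were counted. Its mean was 14.4 ± 4.91 CPM in Variant 1 Neo, 15.8 ± 1.22 in Variant 1 Setd2, 10.8 ± 1.66 in Variant 3 Neo and 9.57 ± 4.97 in Variant 3 Setd2. Its log2 fold change for sgSetd2 was 0.14 ± 0.36 in Variant 1 and -0.18 ± 0.36 in Variant 3. In Variant 1 Setd2 the mean of Pcdhgb6 in plain CPM, at 17.7 CPM, was higher than that of Pcdhgc3.

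Pcdhgc4, whose protein in mice is needed for the survival of neurons, held 8.01 ± 4.97, 8.15 ± 2.77, 9.89 ± 3.20 and 8.58 ± 1.24 CPM in the same order of groups. Pcdhgc5 held 2.80 ± 1.56, 7.01 ± 1.62, 5.29 ± 0.268 and 8.53 ± 7.72 CPM. The last of these means rested on CE450, at 16.8 CPM, beside 1.58 CPM in CE456. In Variant 1 the Pcdhgc5 codes of Setd2 lay above those of Neo, and in Variant 3 the codes overlapped.

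No gamma member passed in any contrast. For sgSetd2 in Variant 1, 5 had an unadjusted p under 0.05, all higher, where 7.61% of all genes tested were higher at that level, and DESeq2 called 2 of them, Pcdhga2 and Pcdhga12. In Variant 3 this number was 1, Pcdhgb4, where 8.33% of all genes tested were higher, and DESeq2 called 0. Over the 20 tested gamma members, 17 had a log2 fold change above 0 in Variant 1 and 14 in Variant 3, with medians of 0.79 and 0.47. Averaged over the variants DESeq2 called Pcdhga2, and limma called Pcdhga2 and Pcdhgb5. Also averaged, Pcdhga2 and Pcdhga8 passed as higher without CE472, and Pcdhgc5 without CE456.

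Pcdhga2 showed the smallest adjusted p of the cluster averaged over the variants, at 0.0882 (log2 fold change 1.84 ± 0.60). It held 0.559 ± 0.619 CPM in Variant 1 Neo, 3.84 ± 0.981 in Variant 1 Setd2, 2.29 ± 1.58 in Variant 3 Neo and 4.27 ± 1.87 in Variant 3 Setd2. The Variant 1 codes did not overlap, whereas the Variant 3 codes did. Its Variant 1 difference was 2.77 ± 0.88 on the log2 scale (adjusted p = 0.145).

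Pcdhga12 held 0.895 ± 0.273 CPM in Variant 1 Neo and 3.14 ± 1.09 in Variant 1 Setd2, again without overlap of codes (log2 fold change 1.81 ± 0.57, adjusted p = 0.144). In Variant 3 it held 2.64 ± 0.475 and 2.99 ± 2.49 CPM. Pcdhgb5 held 0.240 ± 0.198 CPM in Variant 1 Neo and 4.98 ± 3.28 in Variant 1 Setd2, with all 9 Setd2 tumours at 1.11 CPM or more and all 9 Neo tumours at 0.753 CPM or less, a separation that 0.225% of all genes tested showed. Its log2 fold change of 4.38 ± 1.68 did not pass (adjusted p = 0.225), though it was called by edgeR on the 36 tumours, and in Variant 3 the codes overlapped, at 1.63 ± 2.36 and 2.22 ± 0.572 CPM.

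Pcdhgb6 held 7.96 ± 2.34 CPM in Variant 1 Neo and 17.7 ± 2.19 in Variant 1 Setd2 (log2 fold change 1.15 ± 0.41, adjusted p = 0.193), and 7.95 ± 2.96 and 7.74 ± 4.39 CPM in Variant 3. Pcdhga6 held 2.96 ± 1.30 and 7.63 ± 2.46 CPM in Variant 1 and 3.02 ± 1.87 and 2.38 ± 1.81 CPM in Variant 3. Pcdhga7 held 6.65 ± 3.00 and 12.2 ± 3.06 CPM in Variant 1, where its codes overlapped, and 5.56 ± 2.38 and 7.85 ± 1.31 CPM in Variant 3. Codes of Setd2 lay above those of Neo for 6 gamma members in Variant 1 (Pcdhga2, Pcdhga6, Pcdhga12, Pcdhgb5, Pcdhgb6 and Pcdhgc5), against 11.7% of all genes tested.

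Pcdhgb4 was the gamma member with the smallest p in Variant 3, at 1.31 ± 0.256 CPM in Neo and 3.53 ± 1.85 in Setd2 (log2 fold change 1.43 ± 0.50, adjusted p = 0.199). In Variant 1 it held 1.75 ± 0.243 and 1.78 ± 1.05 CPM. Pcdhgb1 went the other way in Variant 1, from 6.61 ± 3.63 to 2.87 ± 1.74 CPM with overlapping codes, and held 5.13 ± 1.36 and 3.78 ± 2.09 CPM in Variant 3.

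The other expressed gamma members stayed below 5 CPM in every group mean. Pcdhga5 was level, at 4.42 ± 1.88, 3.98 ± 3.02, 4.03 ± 2.16 and 4.22 ± 0.438 CPM in the order Variant 1 Neo, Variant 1 Setd2, Variant 3 Neo and Variant 3 Setd2. In that order Pcdhgb2 held 1.27 ± 1.54, 3.21 ± 3.31, 2.86 ± 3.68 and 4.40 ± 1.88 CPM, and Pcdhga8 held 1.33 ± 1.34, 2.75 ± 0.253, 0.900 ± 0.206 and 2.46 ± 1.70 CPM. Pcdhga3 held 1.78 ± 1.15, 2.57 ± 2.14, 1.20 ± 0.608 and 2.58 ± 0.796 CPM. The SDs of these members were often as large as their differences. In Variant 3, however, the Setd2 codes of Pcdhga3, and also of Pcdhga4 and Pcdhgb4, lay above those of Neo. The share of all genes tested with that separation is not given here.

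Pcdhgb7 held 2.05 ± 0.599, 3.35 ± 2.45, 1.50 ± 0.960 and 1.96 ± 1.28 CPM in the same order. Pcdhga11 held 1.04 ± 0.176, 1.67 ± 1.08, 0.660 ± 0.599 and 1.82 ± 1.16 CPM, and Pcdhga9 held 1.08 ± 0.726, 1.17 ± 0.765, 0.579 ± 0.325 and 1.43 ± 0.674 CPM. Pcdhga1 held 0.847 ± 0.623, 0.542 ± 0.346, 1.01 ± 0.889 and 0.828 ± 0.603 CPM. Pcdhga4, whose reads are easily split, held 0.253 ± 0.203, 0.507 ± 0.181, 0.540 ± 0.216 and 1.18 ± 0.245 CPM.

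No member passed between the fusion variants. In sgNeo 0 of 34 members passed, where 0.005% of all genes tested passed, and 3 were higher in Variant 3 at an unadjusted p under 0.05 (4.06% of all genes). These were Pcdhga12 (log2 difference 1.56 ± 0.57, adjusted p = 0.406), Pcdhga2 (2.03 ± 0.85, 0.444) and Pcdhb1 (6.32 ± 2.72, 0.463), and DESeq2 called 0. Pcdhb1 held 33 counts in Variant 3 Neo, all in 1 tumour of CE433, and 0 in Variant 1 Neo, so its value depends on the prior count. The lower members of smallest p were Pcdhga9 (-0.90 ± 0.74), Pcdhgc3 (-0.40 ± 0.36) and Pcdhgb4 (-0.42 ± 0.49). The codes of Variant 3 lay above those of Variant 1 for 4 members, Pcdhb18, Pcdhb20, Pcdhga12 and Pcdhgc5, against 6.83% of all genes tested.

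In sgSetd2 0 of 34 members passed, where 0.13% of all genes tested passed, and 4 were lower in Variant 3 at an unadjusted p under 0.05 (5.18% of all genes). They were Pcdhgb6 (log2 difference -1.19 ± 0.41, adjusted p = 0.375), Pcdhb21 (-9.39 ± 3.51, 0.423), Pcdhga6 (-1.68 ± 0.65, 0.423) and Pcdhb17 (-3.18 ± 1.32, 0.457). DESeq2 called Pcdhb21, which had 198 counts in Variant 1 Setd2, mainly of code CE479, and 0 in Variant 3 Setd2. The higher members of smallest p were Pcdhgb4 (0.99 ± 0.50), Pcdhb9 (4.35 ± 2.73) and Pcdhga4 (1.22 ± 0.80). Pcdhb9 held 49 counts in Variant 3 Setd2, all in 1 tumour of CE454, and 1 count in Variant 1 Setd2.

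The effect of sgSetd2 was not shown to differ between the variants for any member. Of the interaction terms 0 of 34 passed, where 0.0% of all genes tested passed, and 3 were below 0 at an unadjusted p under 0.05 (2.53% of all genes). These were Pcdhb1 (-10.70 ± 3.45, adjusted p = 0.706), Pcdhb20 (-3.97 ± 1.62, 0.795) and Pcdhb21 (-9.34 ± 4.05, 0.824), of which DESeq2 called Pcdhb21. The terms above 0 with the smallest p were those of Pcdhgb4 (1.41 ± 0.70), Pcdhb9 (5.32 ± 3.31) and Pcdhga9 (1.19 ± 1.04). The terms of Pcdhb1, Pcdhb9 and Pcdhb21 each rest on a group with 0 or 1 count, so their size depends on the prior count. Pcdhb17, which passed in Variant 3 and not in Variant 1, had a term of -2.80 ± 1.71 (adjusted p = 0.857).

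Genes that act on the protocadherin promoters were expressed in all groups and mostly did not pass. Of 26 tested, which include CTCF, cohesin subunits and DNA and histone methyltransferases, 1 fell in Variant 1 and averaged, and 0 passed in Variant 3. This was Ehmt1, a histone H3 methyltransferase of silenced chromatin, with log2 fold changes of -0.62 ± 0.11 (adjusted p = 0.0245) and -0.41 ± 0.08 (0.0102). Of 17 tested genes for processing and cytoplasmic partners of the clustered protocadherins, 1 rose in Variant 1 and averaged, Ret, a receptor tyrosine kinase that is a partner of these proteins in neurons. Ret held 14.8, 37.4, 19.1 and 38.4 CPM in Variant 1 Neo, Variant 1 Setd2, Variant 3 Neo and Variant 3 Setd2.

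Related adhesion genes were mixed. Of 12 non-clustered protocadherins 5 were tested and none passed in any contrast, Pcdh1 holding 13.8 to 18.9 CPM in the group means. Of 12 tested classical cadherins and catenins, Cdh4 rose in Variant 1 and averaged, from 0 to 1.22 CPM in Variant 1. Cdh16 and Ctnnd2, the gene of delta-catenin, fell in Variant 3 and averaged. Cdh16 went from 21.0 to 1.27 CPM and Ctnnd2 from 6.14 to 0.0570 CPM in Variant 3. Of 15 tested genes flanking the clusters, Cd14 alone passed, averaged over the variants, higher by 0.57 on the log2 scale (adjusted p = 0.0344).

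Markers of other cells were looked at because clustered protocadherins are used by neurons and stromal cells. Of 9 tested neuronal and neuroendocrine markers 0 passed in either variant, and averaged over the variants Calca and Rbfox3 passed, 1 in each direction. Their summed level per tumour ran from 0.768 to 11.6 CPM in Variant 1 Neo, 2.33 to 5.18 in Variant 1 Setd2, 1.36 to 7.91 in Variant 3 Neo and 2.72 to 4.97 in Variant 3 Setd2. Of that list Elavl4 had no count in Variant 1 Neo, Sox10 none in Variant 1 Setd2, Calca none in Variant 3 Neo, and Rbfox3 and Sox10 none in Variant 3 Setd2.

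Fibroblast markers passed for 0 of 11 in the 3 sgSetd2 contrasts, with summed levels of 0.540 to 457 CPM in Variant 1 Neo, 0.889 to 230 in Variant 1 Setd2, 1.85 to 44.7 in Variant 3 Neo and 7.91 to 114 in Variant 3 Setd2. Without the 4 tumours with Col1a1 above 10 CPM the Variant 1 Neo codes held beta sums of 12.6, 38.5 and 33.9 CPM. The Variant 1 Setd2 codes then held 3.14, 5.14 and 3.87 CPM. Then 1 member passed in Variant 1, 2 in Variant 3 and 5 averaged, where 281, 296 and 1439 of 19715 genes passed. Smooth muscle, endothelial, leukocyte, mesothelial and epithelial markers passed for 0 of 8, 5, 7, 2 and 5 tested. Of 11 markers of alveolar type 2 cells, the surfactant-producing cells of the lung epithelium, Lyz2 rose in both variants and Napsa fell in Variant 3, and the summed level was 29894 CPM or more in every tumour.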

How the data were processed

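Per the labels' protocols, RNA of the sorted cells was purified with PicoPure columns, turned into SMART-Seq mRNA libraries and sequenced paired-end on a NovaSeq machine. Raw counts for each gene and tumour were deposited by the authors in 1 table. STAR 2.5.3a, R 4.2 and DESeq2 1.38.3 are named per the submitters' processing notes. How reads were counted, on which strand and against which build and annotation is not given in the sources used here. How reads of overlapping genes and of shared exons were assigned is thus not known. Pcdhga10, with no exonic base of its own, held 61 counts, so few reads of shared exons were given to it.

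Of 49585 gene IDs, 49326 took symbols and coordinates from GENCODE release M21 (GRCm38). Both ENSMUSG00000007440 and 1 other ID carry the symbol Pcdha11 there. The first lies where RefSeq places Pcdha10 and is called so here. Windows of 100 bases of the longest exon that starts a transcript of each member were searched in the other genes. A member with over 5% of them found elsewhere was marked.

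Groups came from the labels. The 3 tumours of each code were added up, and 1 edgeR 4.0.16 model (R 4.3.3) held the 12 sums. It tested 20009 genes that filterByExpr kept, with TMM scaling, robust glmQLFit, glmQLFTest and Benjamini-Hochberg adjusted p-values at a threshold of 0.05, in 6 contrasts. An SE is the size of the log2 fold change over the root of its F value. The steps were tested on simulated data. CPM are counts scaled by TMM. Where a group had 0 counts, the fold was bounded with 3 counts for that group, which covers counting error only.

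All members are accounted for. Those with a mean of at least 1 CPM in some group, those that passed, and the 3 up and 3 down of smallest p in each contrast are given with values, as are list members that passed. Setd2 was given in every code as the check of the guide. Pcdhb5 and Pcdhb7, which lie outside that rule, and single tumours were chosen after their values were seen. The members and lists were chosen with earlier results of these data known, so no count here is independent support. Alternatives were RLE scaling, no filter and a stricter filter, DESeq2 1.42.0, edgeR on the tumours, limma 3.58.1, only the groups compared, and leaving out each code. Sex of the code as a covariate, leaving out 4 tumours with Col1a1 above 10 CPM, and both cell cycle settings were added after seeing the data. No batch or date of sequencing is in the labels. Values of 1 gene in the marker lists are not reported here.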

Additional observations from a re-analysis of the deposited data

Results flagged for a closer look

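In 128 sets of 9 tumours, 1 per group and expressed member or cluster sum, 20 had a highest or lowest tumour far from the nearest other on the log2(CPM + 1) scale (Dixon's test at its 95% critical value). Chance flags about 1 in 20 groups, and members that are absent from most tumours of a group are flagged by any tumour with counts. Values are CPM of the tumour, with its nearest neighbour in the group in brackets.

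Among beta members, tumour 2 of CE433 stood apart in Variant 3 Neo with Pcdhb9 at 21.0 (1.50), and tumour 4 of CE472 in Variant 1 Neo with Pcdhb20 at 11.5 (2.55). In Variant 1 Setd2 the tumours set apart were low in absolute terms, with Pcdhb9 at 0.0288 (0) in CE483, Pcdhb12 at 0.348 (0) in CE479 and Pcdhb18 at 0.439 (0) in CE479. In Variant 3 Setd2 they were Pcdhb9 at 0.824 (0) in CE454, Pcdhb17 at 0.489 (0.0450) in CE456 and Pcdhb19 at 2.20 (0.200) in CE450.

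Among gamma members, tumour 4 of CE472 in Variant 1 Neo also stood apart for Pcdhga1 at 5.75 (1.39) and Pcdhga2 at 5.15 (1.48). In Variant 1 Setd2, Pcdhga1 reached 2.45 (0.670) in CE479 and Pcdhga4 2.05 (0.664) in CE483. Low tumours were Pcdhgb1 at 0 (4.36) in CE433 and Pcdhga7 at 0 (3.08) in CE428, both Variant 3 Neo, Pcdhga7 at 1.53 (4.68) in CE456 of Variant 3 Setd2, Pcdhgc4 at 1.83 (5.90) in CE479 of Variant 1 Setd2, and Pcdhgc3 at 2.14 (9.58) in CE468 of Variant 1 Neo. That last tumour, number 4 of CE468, also held the lowest beta sum of its group and was 1 of the 4 with Col1a1 above 10 CPM.

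The alpha sum was set apart by a few counts in 1 tumour of 3 groups, at 0.0404 (0.0200) in CE468 of Variant 1 Neo, 0.440 (0) in CE433 of Variant 3 Neo and 0.0576 (0.0108) in CE456 of Variant 3 Setd2.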

How the results depend on the processing

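The fold changes of the members that passed (Pcdhb9, Pcdhb12, Pcdhb16 and Pcdhb17) kept their sign under each alternative that gave them a value; signs of the other members and contrasts were not followed. The numbers of members that passed for sgSetd2 in Variant 1, in Variant 3 and averaged were 1, 2 and 4. They were 6, 5 and 10 with DESeq2 on the code sums, which called 1500, 1337 and 2869 of 20009 genes, 4, 5 and 7 with edgeR on the 36 tumours, which called 677, 1361 and 2706 of 16315 genes, and 1, 4 and 9 with limma, which called 205, 563 and 1434 genes. With no filter the members numbered 1, 1 and 3, where 284, 289 and 1188 of 33204 genes passed. With sex of the code as covariate they numbered 1, 1 and 2, where 102, 188 and 1160 of 20009 genes passed. With only the groups compared they numbered 2 in Variant 1 and 1 in Variant 3, where 213 and 172 genes passed. Without the 7 tumours of high cell cycle mean the members numbered 0, 0 and 0. With that mean as covariate they numbered 0, 1 and 2. Leaving out each code gave 0 to 1, 1 to 2 and 2 to 4 members. In those fits 16 to 360, 78 to 304 and 728 to 1501 of all genes tested passed. Averaged, Pcdhga2 and Pcdhga8 without CE472 and Pcdhgc5 without CE456 were called higher in sgSetd2. Of the DESeq2 calls 3 of 6 in Variant 1 and 1 of 10 averaged were higher. With edgeR on the tumours 1 of 4 in Variant 1 was higher, and with limma 2 of 9 averaged. Between the variants the number was 0, except 1 in sgSetd2 with DESeq2 and with edgeR on the tumours and 1 for the interaction with DESeq2, and 0 to 0 without each code. The causes of these changes were not tested. Deviations of tumours of equal number in different groups had a median r of 0.042, with 23 of 84 pairs over 0.1. Those of different number and group were slightly lower, with a median of -0.016 and 73 of 402 pairs over 0.1. The numbers were not taken as pairs. With the tumour number as a replicate block on the 36 tumours, 2 members passed in Variant 1, 0 in Variant 3 and 2 averaged. That fit called 783, 410 and 1696 of 16315 genes.

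Adjusted p ran over the alternatives that kept all codes from 9.86e-10 to 0.389 for Pcdhb16 in Variant 1, 2.94e-12 to 0.257 in Variant 3 and 7.12e-23 to 0.0655 averaged. For Pcdhb17 it ran from 0.000338 to 0.176 in Variant 3, for Pcdhb9 from 0.000523 to 0.179 averaged and for Pcdhb12 from 3.52e-05 to 1.0 averaged. Members expressed in Variant 1 Neo numbered 24 at 1 CPM, 11 at 2 CPM and 21 to 25 without each code. The beta sum of Variant 1 Neo was 27.9 CPM, 14.8 without the high cell cycle tumours and 24.6 to 32.7 without each code. The gamma sum of Variant 3 Neo was 68.9 CPM, 77.4 without those tumours and 68.5 to 69.4 without each code. Members with few counts are limited by depth, and single gamma members by shared exons.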
